A study of Oreochromis niloticus with 12 samples.

Results

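Transcripts of 2 insulin-like growth factor (IGF) binding proteins, igfbp5 and igfbp4, and of the insulin receptor substrate irs2 were followed in the pituitary and the brain of dominant and subordinate male Nile tilapia. They were found by name, either as the gene identifier of a row or as the RefSeq symbol of a row whose identifier begins with LOC, with an optional final a or b. This gave 4 loci, of which 3 are among the 714 rows of the pituitary table and 4 are among the 27115 genes of the brain table. The fourth locus, LOC100696646, carries the RefSeq symbol igfbp5a and was a row of the brain table alone. The rows named igfbp5 and irs2 carry no letter in the files. They may be the loci that RefSeq names igfbp5b (LOC100712270) and irs2b (LOC100699855), neither of which is a row under that identifier, but the files do not pair them. The genes were chosen because their pituitary values differ with status, and the authors' deposited table of that comparison puts all 714 pituitary rows below a p-value of 0.05. The pituitary contrast is therefore described without a test, and tests are given for the brain contrast.

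Fish were mature males of the Lake Manzala strain, kept 2 to a tank with 4 to 6 females and watched for social rank until tissues were taken on day 14. The 4 groups were pituitaries of dominant males, pituitaries of subordinate males, brains of dominant males and brains of subordinate males, with 3 libraries each. Dominant males are described by the submitters as reproducing and subordinate males as not reproducing, and no drug, hormone or altered allele is named in the labels. The labels do not say whether a library holds tissue of a single fish, whether samples of the same number shared a tank, or whether a brain and a pituitary came from the same fish. The p-values therefore measure only the spread between these samples, which may be in part technical.

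IGF1 and IGF2 are growth-promoting ligands that act through the receptor IGF1R. Most of the IGF in body fluids is held by binding proteins, which shield the ligand from its receptor or deliver it to tissue until proteases such as the pappalysins cut them. Inside the cell, IRS2 docks on the activated insulin and IGF receptors and passes the signal to PI3-kinase and AKT, which restrain the FOXO transcription factors. In teleosts IGF1 also acts on the pituitary itself, where it lowers the release of growth hormone.

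Values are normalised read counts, which are gene counts divided by a size factor of each library. Each log2 difference is the dominant mean of log2(value + 1), with a pseudocount of 1, less the subordinate mean. Brain libraries held 23733115 to 26867631 recovered reads. The 714 pituitary rows held 1649554 to 7025630 reads per library, which are not library depths, and a single gene, gh1 for growth hormone, took 49.6% to 84.2% of them. As a check of the pituitary label, the 3 gonadotropin subunit rows fshb, lhb and cga and the gh1 row were each at 11662 normalised reads or above in every pituitary. In the brain 12 loci for neuronal markers summed to 214336 to 244486 normalised reads per library, and 8 pituitary hormone loci to 10362 to 29532. No locus of either group was at 0 in any library, so presence alone does not identify the tissue. Both tissues were normalised separately, so levels are not compared between them.

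The largest difference of the 3 pituitary genes was in igfbp5, whose product binds IGFs in the matrix around cells. The igfbp5 transcript stood at 233, 587 and 411 normalised reads in dominant pituitaries 1, 2 and 3. In subordinate pituitaries 1, 2 and 3 it stood at 39.3, 37.4 and 61.5. Every dominant pituitary was well above every subordinate pituitary, and the dominant ones also differed more among themselves. The means were 410 ± 177 (SD, n = 3) in dominant and 46.1 ± 13.4 (SD, n = 3) in subordinate pituitaries, a ratio of 8.90 and a log2 difference of 3.06 ± 0.45 (SE). The authors' deposited table gives a log2 fold change of 3.15 for the same comparison.

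The subordinate values of igfbp5 rest on few reads. They correspond to 32, 30 and 66 recovered reads in subordinate pituitaries 1, 2 and 3, against 221, 895 and 418 in dominant ones. The highest upper limit of the 95% Poisson intervals in subordinate pituitaries was 78.3 normalised reads and the lowest lower limit in dominant ones was 203. These intervals cover counting error only. Among the 714 rows, 372 (52.1%) were higher in dominant pituitaries, and igfbp5 had the 12th largest difference of these 372. Without dominant replicate 2, the highest library, the log2 difference of igfbp5 was 2.76.

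**Figure D1:**
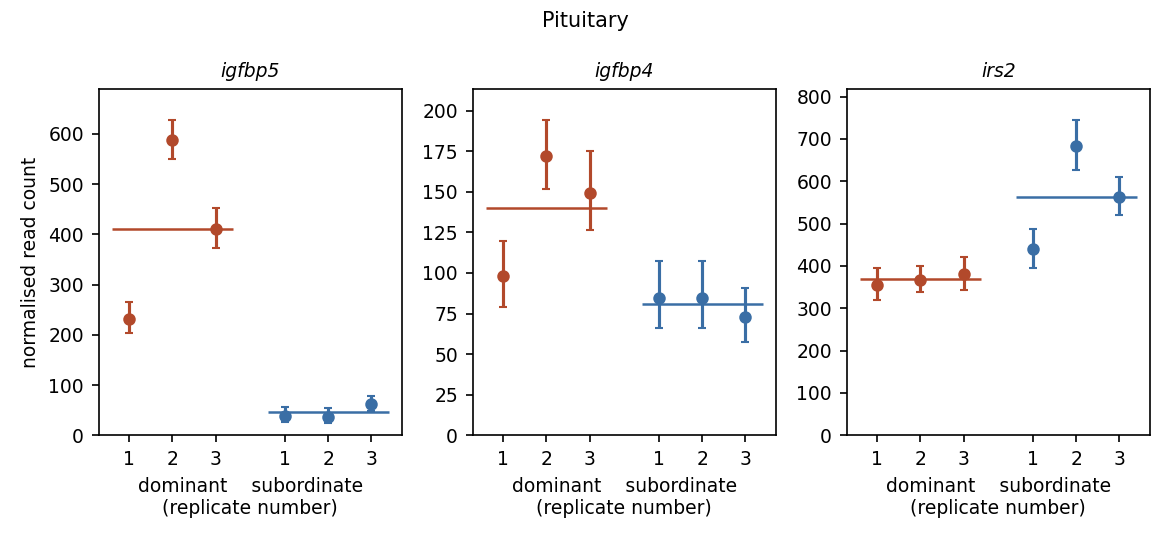
Normalised read counts of igfbp5, igfbp4 and irs2 in the 3 dominant and 3 subordinate pituitaries, on linear axes from 0. Points are libraries with 95% Poisson intervals for counting error, and lines are group means. For igfbp5 the dominant libraries sit between 233 and 587 and the subordinate ones between 37.4 and 61.5. The intervals of igfbp4 overlap between dominant replicate 1 and the subordinate libraries. Those of irs2 overlap between the dominant libraries and subordinate replicate 1.

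The second binding protein, igfbp4, is known in mammals mainly as an inhibitor that keeps IGFs from their receptor. Its transcript stood at 97.9, 172 and 150 normalised reads in dominant pituitaries 1, 2 and 3. In subordinate pituitaries 1, 2 and 3 it stood at 84.8, 84.8 and 72.7. The groups did not overlap, but dominant replicate 1 lay close to the subordinate libraries. Its 95% Poisson interval, 79.0 to 120, overlapped that of subordinate replicate 1, 66.0 to 107. The means were 140 ± 37.9 (SD, n = 3) and 80.8 ± 6.98 (SD, n = 3), a log2 difference of 0.75 ± 0.25 (SE), and igfbp4 ranked 184th among the 372 rows that were higher. The authors' deposited table gives 0.80.

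Both binding protein transcripts were highest in dominant replicate 2, next highest in dominant replicate 3 and lowest of the dominant libraries in replicate 1. They did not differ between the groups to the same degree. Within a library, log2(value + 1) of igfbp5 minus that of igfbp4 was 1.24, 1.77 and 1.45 in dominant pituitaries 1, 2 and 3. It was -1.09, -1.16 and -0.24 in subordinate pituitaries 1, 2 and 3. Because the transcripts may differ in length, only the change of this quantity between libraries can be read, not its sign. In the brain the same quantity was -1.05, -1.56 and -1.42 in dominant and -1.04, -1.78 and -1.17 in subordinate libraries, so there the groups overlapped.

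The adaptor irs2 went the other way. Its transcript stood at 356, 368 and 381 normalised reads in dominant pituitaries 1, 2 and 3. In subordinate pituitaries 1, 2 and 3 it stood at 440, 684 and 563. The groups did not overlap, and the dominant libraries lay close together while the subordinate ones were spread. Each dominant 95% Poisson interval held all 3 dominant values, so their closeness is not read as even expression. The upper limits in dominant replicates 1, 2 and 3, at 395.64, 400 and 421, passed the lower limit of subordinate replicate 1, 395.59. For dominant replicate 1 this was by very little. The means were 368 ± 12.5 (SD, n = 3) and 562 ± 122 (SD, n = 3), a log2 difference of -0.59 ± 0.19 (SE). The coefficient of variation was 3.40% in dominant and 21.7% in subordinate pituitaries. The authors' deposited table gives -0.61, and irs2 ranked 157th among the 342 rows (47.9%) that were lower.

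The groups did not overlap for any of the 3 pituitary genes. This holds for 66% of the 714 rows of the table, which were selected on this contrast, so nothing is read from it. The differences of igfbp4 and irs2 also depend on how the libraries are scaled. With TMM (trimmed mean of M-values) rescaling, computed on these same selected rows, the log2 differences were 3.05 for igfbp5, 0.73 for igfbp4 and -0.60 for irs2. With recovered reads divided by the library's total in the table, the log2 difference was 3.56 for igfbp5, 1.29 for igfbp4 and -0.0098 for irs2. That scaling moved the median of all 714 rows by 0.58 and the share of rows that were higher from 52.1% to 76.9%, and gh1 took 49.6% to 58.7% of the reads of dominant and 61.8% to 84.2% of the reads of subordinate libraries. Relative to the median row, the differences were 2.69, 0.38 and -0.96 with the deposited values, and 2.61, 0.34 and -0.96 with the totals. A rescaling moves all rows by nearly the same amount, so these values had to stay alike and do not settle the scaling. The median is over rows selected on this contrast, so it is not a zero point.

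Other genes of the IGF and insulin pathway were read from a list of 60 names in 9 roles, of which 4 are rows of the pituitary table. That table holds only 714 selected rows, beside 27115 genes in the brain table. The share of all pituitary genes that are rows is therefore not known, and nothing is read from this count. In the binding protein group this was igfbp7, which binds IGFs weakly and in mammals is abundant in vessel walls. It stood at 558, 538 and 482 normalised reads in dominant and at 280, 222 and 390 in subordinate pituitaries, a log2 difference of 0.86 ± 0.24 (SE). Among the proteases it was pappa2, whose product cuts IGFBP5 and IGFBP3 in mammals. It stood at 144, 247 and 189 in dominant and at 44.2, 99.8 and 80.2 in subordinate pituitaries, a log2 difference of 1.40 ± 0.41 (SE). Like igfbp5, pappa2 was highest in dominant replicate 2, but the share of all rows highest there was not counted.

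Downstream of AKT the row was LOC100696396, named foxo6b, a FOXO transcription factor. It stood at 74.7, 144 and 55.1 in dominant and at 43.0, 27.4 and 21.4 in subordinate pituitaries, a log2 difference of 1.48 ± 0.49 (SE). The growth hormone gene gh1 was lower on average in dominant pituitaries, with groups that overlapped and a log2 difference of -1.02 ± 0.67 (SE). No row of the pituitary table matched the ligands igf1 and igf2, the receptors igf1r, igf2r and insr, or the PI3-kinase and AKT genes. As the table holds only rows past a p-value threshold, their pituitary levels were not analysed here. Only 195 of the 368 LOC identifiers in that table have a usable RefSeq symbol, and rows without one could not match a name.

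**Figure D2:**
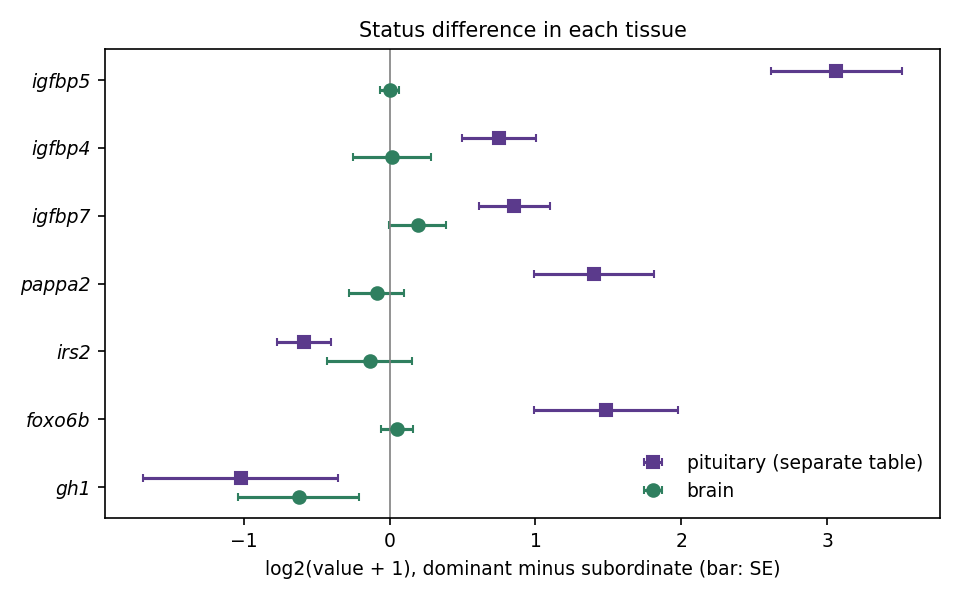
Log2(value + 1) differences, dominant minus subordinate, of the 7 pathway genes that are rows of both tables, with bars of 1 SE from the 3 and 3 libraries. Squares are the pituitary and circles the brain, which were normalised separately. Each pituitary row was selected on the pituitary contrast, so the distance between square and circle is not a test. The igfbp5 square stands at 3.06 and its circle at 0.00060.

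In bulk tissue, fewer cells of a type and less RNA per cell cannot be told apart. Cell type markers could be read in the pituitary only where they were rows of the table with a usable name. As for the pathway list, the share over all pituitary genes is not known, so nothing is read from how many were rows. None of 7 names for fibroblasts and meninges was a row, and neither was any for neurons, radial glia, microglia or skeletal muscle. Of 8 names for endothelium and mural cells the row was pdgfrb, a receptor of pericytes, at 297, 289 and 294 in dominant and at 247, 176 and 222 in subordinate pituitaries. Of 5 names for oligodendrocytes and other myelin the row was mpz, at 82.1, 378 and 115 in dominant and at 55.3, 96.1 and 105 in subordinate pituitaries. The library highest for mpz, dominant replicate 2, was also the highest for igfbp5, igfbp4, pappa2, foxo6b, fshb, lhb and cga. The rows pdgfrb and igfbp7 were highest in dominant replicate 1. The share of all rows that are highest in either library was not counted, so nothing is read from a shared highest library. Of 8 names for pituitary hormones 4 were rows. The gonadotropin subunit fshb stood at 52270 to 89685 in dominant and at 11662 to 33451 in subordinate pituitaries. For lhb the ranges were 229270 to 305773 and 66754 to 185662, and for cga 175794 to 317202 and 104056 to 173241. The gh1 transcript was lower on average in dominant pituitaries, at 1031200 to 1855570 against 1252850 to 5513560, and its groups overlapped. The part of these markers in the differences of igfbp5, igfbp4 and irs2 was not tested.

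To show which rows vary in the same way, each gene's profile over the 6 pituitaries was centred on its mean, and the rows with a usable name at the smallest root mean square distance were taken. Nearest to igfbp5 were LOC100698825, named cpt1b, at a distance of 0.49, LOC100710705, named fibcd1a, at 0.55, and epx at 0.59. The gene cpt1b encodes an enzyme that brings fatty acids into mitochondria. It stood at 416, 1729 and 1011 normalised reads in dominant and at 109, 172 and 98.8 in subordinate pituitaries. The gene epx, an eosinophil-type peroxidase in mammals, rests on as few as 5 reads in a library.

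Among the rows nearest to igfbp4 were LOC100706212, named sult5a1, at 0.11, and stra6, for a retinol transporter, at 0.14. The gene stra6 stood at 102, 147 and 113 in dominant and at 81.1, 76.1 and 65.3 in subordinate pituitaries. Nearest to irs2 were ergic1, of the early secretory pathway, at 0.062, pdss2, of coenzyme Q synthesis, at 0.082, and abca1b, of cholesterol export. The gene ergic1 stood at 610, 608 and 641 in dominant and at 680, 1042 and 904 in subordinate pituitaries. Distances are in log2 units over 6 libraries. The igfbp5 profile spans a 15.7-fold range, that of igfbp4 a 2.36-fold and that of irs2 a 1.92-fold range.

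**Figure D3:**
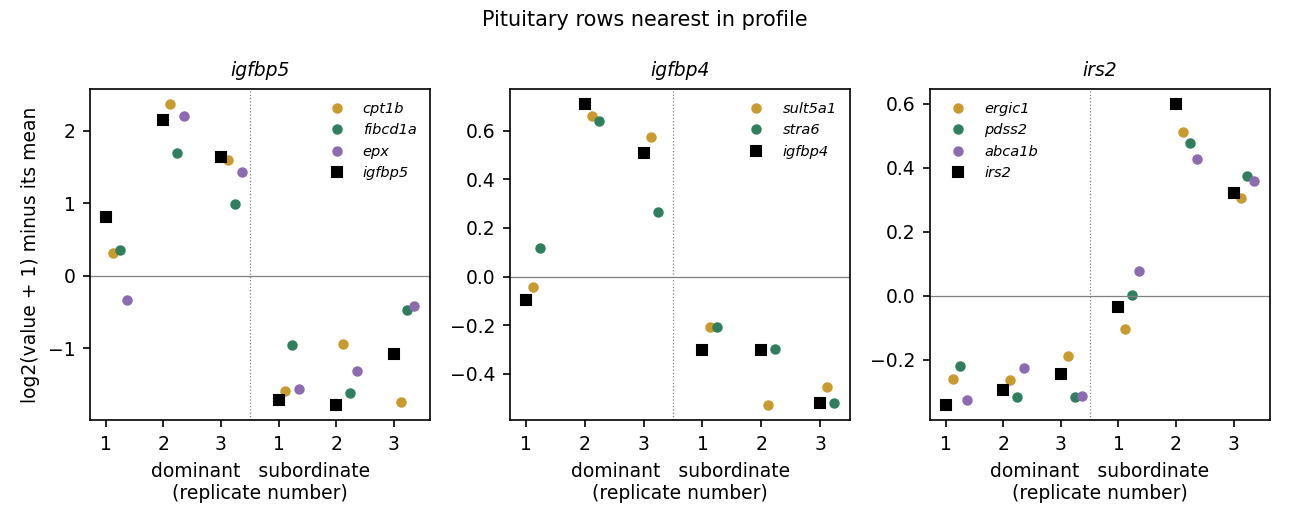
Log2(value + 1) in each pituitary minus the gene's mean over the 6 pituitaries, for igfbp5, igfbp4 and irs2 (black squares) and the named rows nearest to each (coloured circles, set slightly to the right; 3 for igfbp5 and irs2, and 2 for igfbp4). The vertical axes differ between panels. All 714 rows of the table were selected on the status contrast, so a shared step between groups is expected of any pair of rows that change in the same direction.

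In the brain the question was whether the same genes differ with status there. The genes were chosen for the pituitary contrast and not for the brain contrast, but with earlier results of these data known. None of the 4 loci passed limma's test at an adjusted p of 0.05 over the 21743 genes whose mean reached 10 normalised reads. Of all genes tested, 0.0276% passed. At an unadjusted p under 0.05, 0 of the 4 loci passed with limma, edgeR or DESeq2, against 5.17% of all genes with limma.

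The igfbp5 transcript stood at 507, 456 and 516 normalised reads in dominant brains 1, 2 and 3. In subordinate brains 1, 2 and 3 it stood at 472, 493 and 512. The groups overlapped almost completely and the 6 libraries lay within 1.13-fold of each other. The means were 493 ± 32.2 (SD, n = 3) and 492 ± 20.2 (SD, n = 3). The limma difference was 0.00060 ± 0.08 (SE, adjusted p = 0.999) with a 95% interval of -0.19 to 0.19. The pituitary difference of 3.06 lies outside this interval, but it was selected on the pituitary contrast, so this is not a test between tissues. Of 3857 genes with a mean within 1.5-fold of that of igfbp5, 86.7% had a larger standard deviation over the 6 brains.

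The second igfbp5 locus, igfbp5a (LOC100696646), which neighbours igfbp2a in the RefSeq gene order, stood at 279, 291 and 390 normalised reads in dominant brains. In subordinate brains it stood at 342, 384 and 326. The groups overlapped, with the highest and the lowest value both in dominant brains. The limma difference was -0.14 ± 0.15 (SE, adjusted p = 0.936), with a 95% interval of -0.50 to 0.21. Without dominant replicate 3 it was -0.30 (limma unadjusted p = 0.0403, adjusted p = 0.821), and without dominant replicate 1 it was -0.054. How reads that match both igfbp5 loci were counted is not given in the sources used here, so the split between them is uncertain.

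The igfbp4 transcript stood at 1050, 1348 and 1379 normalised reads in dominant brains 1, 2 and 3. In subordinate brains 1, 2 and 3 it stood at 970, 1693 and 1153. Both extremes were subordinate brains, with replicate 1 the lowest and replicate 2 the highest. The limma difference was 0.015 ± 0.21 (SE, adjusted p = 0.994), with a 95% interval of -0.49 to 0.52. A brain difference of 0.75, the pituitary value of igfbp4 with the deposited scaling, lies outside this interval. One of 0.40, its pituitary value when scaled by the total of the 714 table rows without gh1, lies inside it. The pituitary value of 0.75 ± 0.25 (SE) has its own error and was selected on that contrast, so this is not a test between tissues.

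The irs2 transcript stood at 1125, 1437 and 1149 normalised reads in dominant brains 1, 2 and 3. In subordinate brains 1, 2 and 3 it stood at 989, 1880 and 1327. The same 2 subordinate brains were the lowest and the highest as for igfbp4. The limma difference was -0.14 ± 0.23 (SE, adjusted p = 0.953), and it turned to 0.10 without subordinate replicate 2. Its 95% interval, -0.68 to 0.40, includes the pituitary value of -0.59 with the deposited scaling. A brain difference of that size therefore cannot be told from none with these libraries. When scaled by the total of the 714 table rows, which is not a library depth, the pituitary value was -0.0098, inside the interval. With gh1 left out of that total it was -0.94, outside the interval. As for igfbp4, the pituitary value was selected on that contrast, so this is not a test between tissues.

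**Figure D4:**
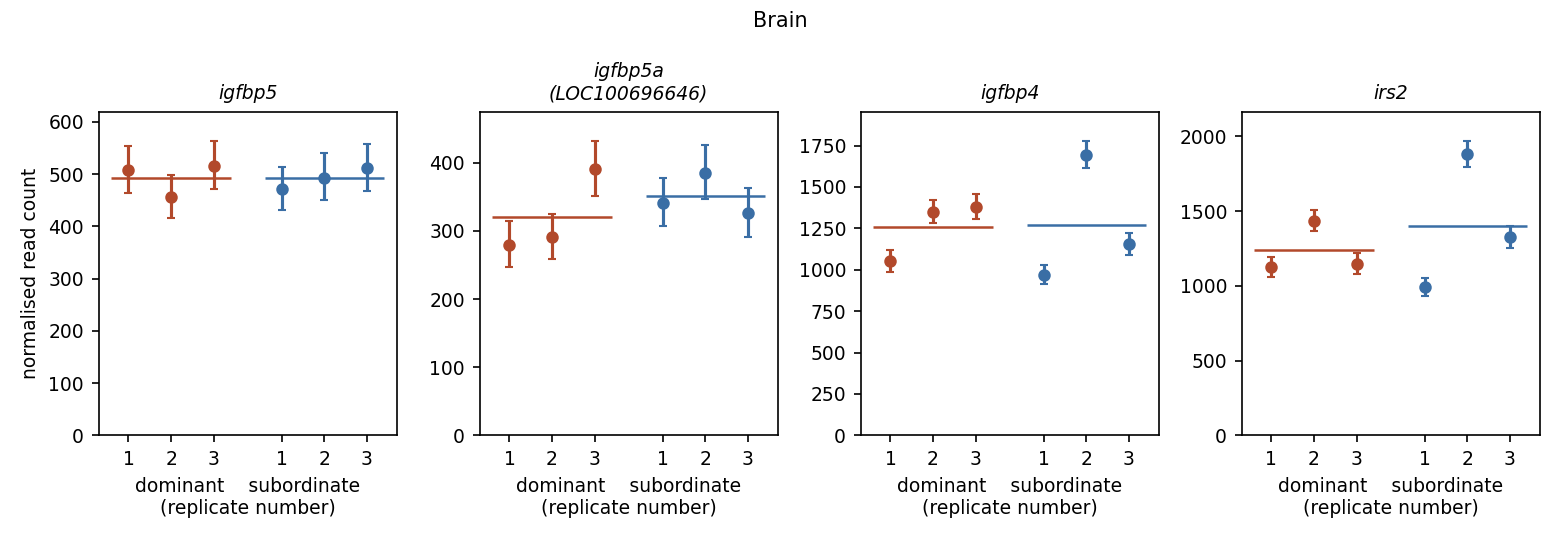
Normalised read counts of igfbp5, igfbp5a, igfbp4 and irs2 in the 3 dominant and 3 subordinate brains, on linear axes from 0, with 95% Poisson intervals for counting error and lines at group means. The igfbp5 libraries sit between 456 and 516, and subordinate replicate 2 is the highest for igfbp4 at 1693 and for irs2 at 1880.

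The spread of igfbp4 and irs2 between brains was wide for their level, and the groups overlapped. Only 7.2% of 3541 genes of like mean had a larger standard deviation over the 6 brains than igfbp4, and 4.7% of 3489 had a larger one than irs2. Subordinate brain 1 and dominant brain 1 were the lowest for both genes. This order was noticed in the values. It holds for 2 of the 4 loci, for 7 of 70 loci of the pathway list and for 11% of all genes tested. The ligand gene igf2 shared it, at 147, 259 and 293 normalised reads in dominant and at 152, 337 and 265 in subordinate brains. The ligand gene igf1 was highest in those same 2 brains, at 234 in dominant brain 1 and 220 in subordinate brain 1, and lowest at 124 in subordinate brain 2. The other igf1 values were 183, 161 and 139 in dominant brains 2 and 3 and subordinate brain 3.

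Summed levels of cell type markers also varied between these brains. For comparison, 5.17% of all genes tested had an unadjusted limma p under 0.05, and the groups did not overlap for 10.8% of them. For fibroblasts and meninges the sum of 10 loci was 2829 to 3482 in dominant and 2613 to 3024 in subordinate brains, with the lowest sum in subordinate replicate 2. Its members went opposite ways, with col1a2 at 216 to 341 against 172 to 184 and postna (LOC100695303) at 138 to 148 against 219 to 273, and 4 of the 10 had an unadjusted limma p under 0.05. For endothelium and mural cells the sum of 8 loci was 6644 to 7514 and 6707 to 7693, with 0 loci under 0.05. For radial glia and astrocytes the sum of 7 loci was 131081 to 153329 in dominant and 111424 to 128350 in subordinate brains, which do not overlap, with 3 loci under 0.05. Its largest part was s100b, at 76315 to 84600 against 58710 to 73283. Not all members separated the groups, with glula (LOC100534445) at 13371 to 13771 against 12921 to 16962. For neurons the sum of 12 loci, of which snap25 was the largest part, was 226777 to 244486 and 214336 to 237806, with 4 loci under 0.05. Neuronal members also went opposite ways, with nefl at 3451 to 4580 against 365 to 2806 and syt1 at 22737 to 24006 against 25345 to 27594. The sum of 7 oligodendrocyte loci was 151629 to 169558 and 98129 to 184679, with 1 locus under 0.05. The sum of 5 microglia loci was 30695 to 32372 and 16968 to 36741, with 0 under 0.05, and that of 6 skeletal muscle loci was 167 to 376 and 296 to 316, also with 0. At least 1 library had 0 reads for 1 muscle locus, and no locus of the other groups named so far was at 0. The sum of 15 posterior hox loci, which mark hindbrain and spinal cord, was 1071 to 1898 in dominant and 70.6 to 811 in subordinate brains, with 9 loci at 0 in at least 1 library and 8 under 0.05. The sum of 8 pituitary hormone loci was 10362 to 15002 in dominant and 13856 to 29532 in subordinate brains, with 1 locus under 0.05. It was highest in subordinate replicate 3. The part of these markers in the brain values of igfbp5, igfbp5a, igfbp4 and irs2 was not tested.

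Across the pathway list, 70 loci were tested in the brain. None passed over all genes with limma (smallest adjusted p = 0.855), edgeR or DESeq2, 30 were higher (42.9%, beside 48.8% of all genes) and 40 lower, and the median log2 difference was -0.024 beside -0.0043 over all genes. At an unadjusted p under 0.05 there were 2 loci higher and 1 lower, 4.29% of the list beside 5.17% of all genes (3.1% higher and 2.07% lower). Leaving out subordinate replicate 1 raised this count of 3 to 11 (15.7% of the list beside 8.77% of all genes), and leaving out subordinate replicate 3 lowered it to 1 (1.43% beside 4.17%). The groups did not overlap for 6 of the 70 loci, beside 10.8% of all genes.

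**Figure D5:**
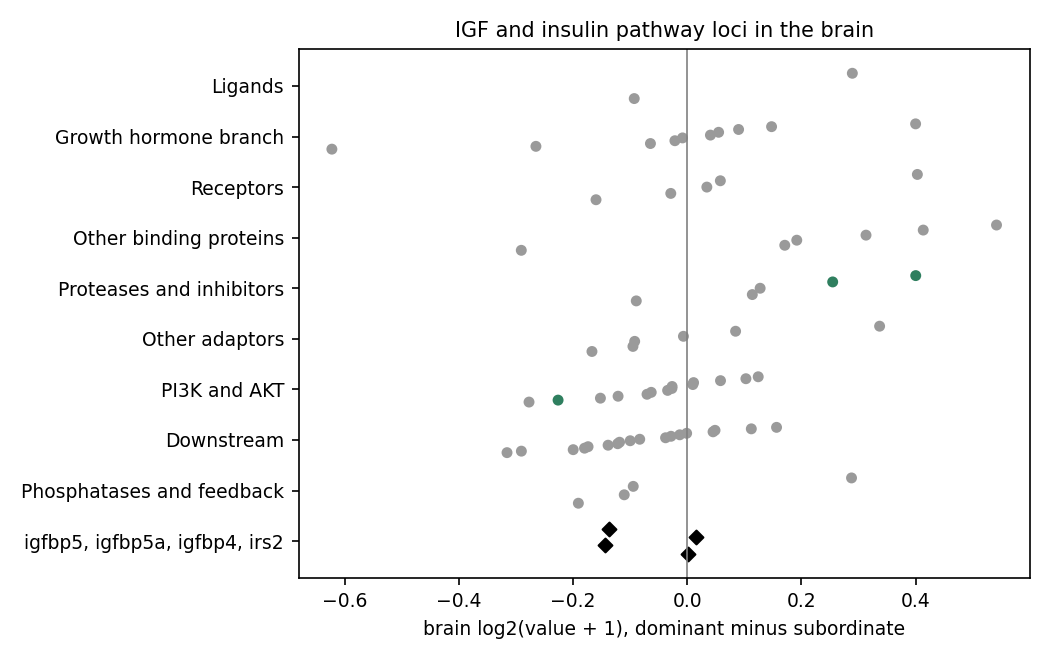
Brain log2(value + 1) differences, dominant minus subordinate, of 70 pathway loci by role (circles) and of igfbp5, igfbp5a, igfbp4 and irs2 (black diamonds in the bottom row). Green circles are the 3 loci with an unadjusted limma p under 0.05. The differences of the circles run from -0.62 to 0.54.

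The 3 loci with an unadjusted p under 0.05 were 2 regulators of binding proteins and a PI3-kinase subunit. The gene pappa, whose product cuts IGFBP4 in mammals, stood at 511, 453 and 458 normalised reads in dominant and at 398, 331 and 349 in subordinate brains. Its log2 difference was 0.40 ± 0.10 (SE, limma unadjusted p = 0.00557, adjusted p = 0.855). LOC100692284, named stc1, encodes a stanniocalcin, a family that blocks pappalysins in mammals. It stood at 253, 235 and 238 in dominant and at 193, 219 and 196 in subordinate brains (log2 difference 0.25, limma adjusted p = 0.934). The gene pik3cb, for a catalytic subunit of PI3-kinase, stood at 673, 717 and 703 in dominant and at 774, 819 and 857 in subordinate brains (log2 difference -0.23, limma adjusted p = 0.931). For all 3 the groups did not overlap, as for 10.8% of all genes, but they were picked by their p, so nothing is read from this. None passed over all genes.

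Among the other binding proteins in the brain, 5 of 6 loci were higher (83.3%, beside 48.8% of all genes) and 1 was lower. Their median was 0.25, beside -0.0043 over all genes, and none had an unadjusted limma p under 0.05. They ran from -0.29 for igfbp1a to 0.54 for igfals, which is the least abundant of them at 10.4 to 28.2 normalised reads. igfbp6b (LOC100708122) stood at 549 ± 53.7 against 444 ± 69.7 (SD, n = 3) and igfbp7 at 965 ± 106 against 853 ± 171 (SD, n = 3). The receptors showed small differences for their abundant loci, -0.03 for insrb (LOC100697854) and 0.03 for insra (LOC100696191). igf1rb (LOC100707581) stood at -0.16 and igf1ra (LOC100711993), at 28.1 to 57.0 normalised reads, at 0.40. Downstream genes were lower in 14 of 18 loci (22.2% higher, beside 48.8% of all genes). Their median was -0.091, and none had an unadjusted limma p under 0.05. Loci read in the same 6 libraries are not independent, so nothing is read from these counts of directions. The protease pappa2 and foxo6b, both higher in dominant pituitaries, differed by -0.09 and 0.05 in the brain (limma adjusted p = 0.962 for each).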

How the data were processed

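Messenger RNA of pituitaries and brains was sequenced in 12 samples, 3 for each of 4 groups of tissue and social status taken from the sample titles. The submitters' processing notes name STAR 2.201, HTSeq, DESeq, DESeq2, Trim Galore and FastQC 0.11.4 as the authors' tools. Not given in the sources used here are the annotation and genome build, whether strand was used and how reads at several loci were counted, so no positions are printed. The deposited signal values are normalised read counts per the file headers. All values checked were whole multiples of a single step per library (100%, within 0.01), so whole reads and size factors of 0.801 to 1.52 were recovered. For the contrast of dominant with subordinate males, log2 fold changes and unadjusted p-values were deposited by the authors. Blank lines (251) were left out of the brain table, and 0 columns of values were left unused.

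The brain test was two-sided, on log2(value + 1), from limma 3.58.1 (R 4.3.3, eBayes with trend=TRUE) for genes whose mean reached 10, with Benjamini-Hochberg adjustment over all of them and a threshold of 0.05. The script was first tested on simulated data. Standard errors in the pituitary come from both groups' standard deviations, with no test. On the recovered brain reads edgeR 4.0.16 called 6 genes and DESeq2 1.42.0 called 84, against 6 with limma. RefSeq (assembly O_niloticus_UMD_NMBU) held 17128 of 17130 brain and 368 of 368 pituitary LOC identifiers. It gave a symbol other than a LOC identifier to 5834 of the brain and 195 of the pituitary ones. Rows without such a symbol could not match any list. The genes, the pathway list and the marker lists were chosen with earlier results of these data known. Named genes were all loci of the chosen names, all list genes in the pituitary table, up to 6 list genes per direction in the brain with an unadjusted p under 0.05, and the 3 nearest profiles, of which 1 for igfbp4 is not reported here. Values of the other list and marker genes in the text were chosen after they were seen. Alternatives were other pseudocounts, filters and scalings, the replicate block and each sample left out. Scaling by the total of the 714 pituitary rows without gh1 was added after the data were seen. Figures were drawn with matplotlib 3.10.9.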

Additional observations from a re-analysis of the deposited data

How the results depend on the processing

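The pituitary differences of igfbp5 and igfbp4 kept their direction in every alternative tried. That of irs2 also stayed below 0, but with the library's total in the table it was -0.0098, too near 0 to give a direction. The groups did not overlap, so leaving out a sample or changing the pseudocount could not turn a direction. The replicate block cannot change a difference in this balanced design. With each sample left out in turn the differences of igfbp5, igfbp4 and irs2 ran from 2.76 to 3.42, from 0.58 to 0.98 and from -0.75 to -0.44. Scaling by the library's total in the table moved igfbp4 to 1.29 and irs2 to -0.0098, and leaving gh1 out of the total moved them to 0.40 and -0.94. These scalings moved the median row by 0.58 and -0.35. In the brain no alternative brought any of the 4 loci past the adjusted threshold, nor any locus of the pathway list. Differences near 0 changed sign. That of igfbp5 was -0.00018 with quantile normalisation and -0.033 to 0.055 with each sample left out. That of igfbp4 was -0.0058 with edgeR, -0.012 with DESeq2 and -0.16 to 0.24 with each sample left out, and that of irs2 was -0.36 to 0.10. That of igfbp5a was -0.30 to -0.054 with each sample left out, with no change of sign. The cause was not tested. The 3 list loci with an unadjusted p under 0.05 became 1 to 11 with each sample left out. Genes called in the whole brain numbered 84 with DESeq2, 4 with a mean of at least 50, 1 to 15 with each sample left out and 1 with the replicate block.

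Whether the replicate numbers pair the samples is not given by the labels, and the data did not meet the bar of a correlation over 0.1 in every pair. Deviations of same-numbered libraries from their group means correlated at 0.092, -0.030 and -0.021 in the brain and at 0.15, 0.078 and -0.053 in the pituitary for numbers 1, 2 and 3. For number 1 the dominant library correlated with the other subordinate libraries at -0.043 or lower in the brain and at -0.059 or lower in the pituitary, while for numbers 2 and 3 another number correlated higher in both tissues. With the replicate number as a block the list loci with an unadjusted limma p under 0.05 were 6 (8.57% of the list beside 6.2% of all genes). In this balanced design the block cannot change a difference. Those of igfbp5, igfbp5a, igfbp4 and irs2 in the brain were thus 0.00060, -0.14, 0.015 and -0.14. Their unadjusted limma p-values with the block were 0.995, 0.399, 0.913 and 0.323. The pituitary differences of igfbp5, igfbp4 and irs2 were likewise 3.06, 0.75 and -0.59. Depth limits the subordinate igfbp5 values, which rest on 30 to 66 reads.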
